A study of Mus musculus with 5 samples.

Results

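Cells of the S3 segment, the last and straight stretch of the proximal tubule, were chosen by their counts of 6 genes from single-cell RNA data of mouse kidney. A droplet barcode was taken as S3 where it held at least 2 unique molecular identifiers (UMIs, each marking 1 captured RNA molecule) of Slc7a13. It also had to hold no UMI of Slc5a2, Havcr1, Mki67 or Ptprc and at most 1 of Slc12a1. Barcodes had to have at least 3000 UMIs, at least 200 genes and at most 25% of UMIs on the 13 mitochondrial genes. Of 37382 barcodes that passed these depth and quality limits, 8816 were S3, or 23.6% (exact 95% binomial interval 23.2 to 24.0%). The genes of the rule serve as description only, since they picked the cells.

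The study collected kidney cells of male C57BL/6J mice aged 6 to 8 weeks after unilateral ischemia-reperfusion injury (UIR), in which the left renal pedicle was clamped for a time and then released. The labels give 5 conditions, which are Sham and days 1, 3, 14 and 28 after UIR, each with 1 sample, and kidneys of 3 mice made up a sample. The study's methods speak of more matrices than the libraries found here, so what 1 library holds is not known beyond its barcodes. The 5 libraries share 1 matrix, and no label ties a library, marked by a numeral after its barcodes, to a condition. They are therefore named 1 to 5 and form 1 pooled sample, with no comparison between conditions, and intervals cover counting error only. GEO's cell type label reads Goblet cell, yet of 37382 passing barcodes only 16 held a UMI of Muc2, the mucin of goblet cells, and 0 held one of Zg16. Among the S3 barcodes 96.8% held a UMI of Lrp2, the endocytic receptor megalin of the proximal tubule, and 98.2% held one of Slc34a1, its phosphate transporter.

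The proximal tubule reclaims most of what the glomerulus filters, and its cells change along the way. The early S1 segment carries high-capacity carriers such as the glucose transporter Slc5a2. The late S3 segment, in the outer stripe of the outer medulla, recovers what is left with high-affinity carriers, secretes organic anions and cations, and metabolises drugs and steroids. Slc7a13 is an aspartate and glutamate carrier (AGT1) of S3, and in male mice the proximal tubule also expresses androgen-driven genes such as Kap. S3 is known as a segment readily damaged by ischemia. Havcr1 (KIM-1) marks injured tubule cells, so the cells described here are those without a detected UMI of it.

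Slc7a13 lies at chr4:19818725-19842218 (GRCm38, plus strand). Members held a median of 6 Slc7a13 UMIs, with quartiles of 3 and 11 and a highest count of 114. Members with exactly 2, just inside the threshold, numbered 1301 or 14.8%, and 1824 barcodes that met every other condition held exactly 1. The barcodes just inside had 179 counts per 1000000 UMIs (CPM, a gene's share of the summed UMIs) of Slco1a1, 215 of Slc5a8, 836 of Inmt and 50459 of Kap. Those just outside had 113, 171, 683 and 42094 CPM of the same genes. Slc7a13 also reached barcodes that should lack it, with a UMI in 14.9% of thick limb barcodes (5 or more Slc12a1 UMIs, median depth 7549 UMIs) and in 10.6% of leukocyte barcodes (2 or more Ptprc UMIs, median depth 5515 UMIs). Thinned to 3000 UMIs each, these shares were 8.16% and 6.65%. For the S3 barcodes, whose unthinned median depth was 7755 UMIs, it was 90.4%, a share that the rule itself sets high.

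The share of S3 cells differed widely between libraries. Libraries 1 to 5 held 2657, 1934, 186, 980 and 3059 of them. As shares of the passing barcodes these were 44.9, 29.5, 1.56, 15.3 and 46.7%, so library 3 was the lowest and libraries 1 and 5 were the highest. S1 barcodes (2 or more Slc5a2 UMIs, no Slc7a13) made up 14.0, 21.6, 26.7, 26.8 and 12.5%, so the libraries poorest in S3 were the richest in S1. S2-like barcodes (2 or more UMIs of the S2 carrier Slc22a6, none of Slc5a2 or Slc7a13) lay between 6.33% and 12.0%. The limits on Havcr1, Mki67, Ptprc and Slc12a1 were the same for S1 and S2-like barcodes as for S3. Fewer cells of the segment, fewer captured cells and less Slc7a13 RNA per cell cannot be told apart in these shares.

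**Figure D1:**
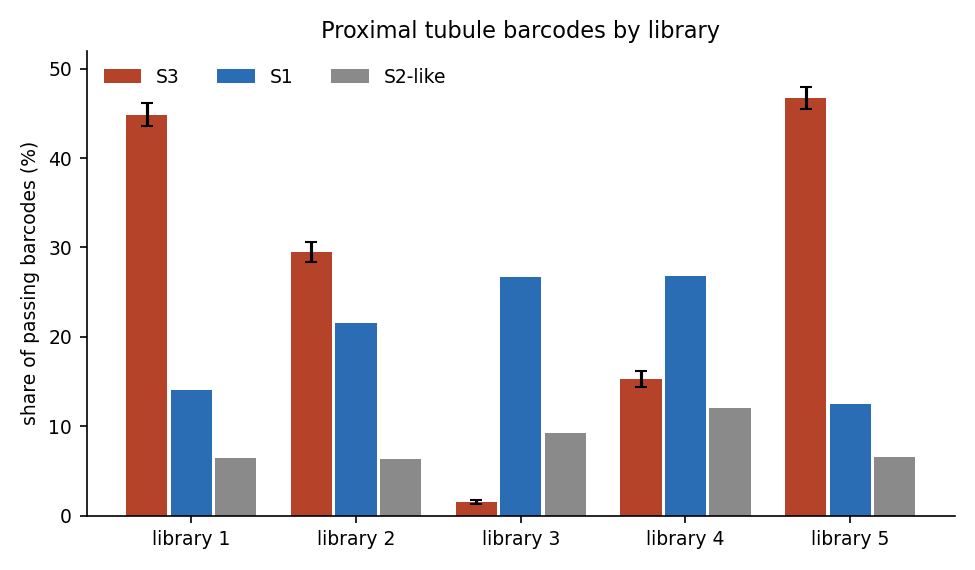
Share of passing barcodes (%, y axis) that were S3, S1 or S2-like in each of the 5 libraries (x axis); error bars on S3 are exact 95% binomial intervals. S3 ran from 1.56% in library 3 to 46.7% in library 5.

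The exclusions weighed most on library 3. Of 11562 passing barcodes with 2 or more Slc7a13 UMIs, 2092 held a UMI of Slc5a2, 551 of Havcr1, 181 of Ptprc, 135 of Mki67 and 41 had more than 1 of Slc12a1, and a barcode could meet several of these. Havcr1 was detected in 35.2% of the 486 such barcodes in library 3 (exact 95% interval 30.9 to 39.6%). In libraries 1, 2, 4 and 5 the share was 2.66, 6.58, 6.76 and 0.757%. Slc5a2 was detected in 276 of 3081, 358 of 2509, 169 of 486, 442 of 1523 and 847 of 3963 such barcodes in libraries 1 to 5. In library 3 it thus removed about as many as Havcr1, with 171. All passing barcodes of the 5 libraries held Havcr1 in 2.77, 6.45, 21.2, 5.44 and 0.504%, and the part of free RNA in these shares was not tested. Members of libraries 3 and 4 also lay closer to the threshold, with median Slc7a13 counts of 3 and 4 UMIs against 7, 7 and 6 in libraries 1, 2 and 5. Exactly 2 UMIs were held by 41.9% of the members in library 3.

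The S3 markers that the rule did not use were also high in the chosen cells. Slco1a1 (chr6:141907282-141946962, minus strand), an organic anion transporter, stood at 295 CPM in S3, 3.40 in S1 and 53.7 in S2-like barcodes. Within S3 it was 304, 345, 163, 147 and 305 CPM in libraries 1 to 5, and in S1 1.99 to 8.13 CPM. Slc5a8 (chr10:88885992-88929515, plus strand), a sodium-coupled carrier of lactate and short-chain fatty acids, stood at 300.1, 18.3 and 135 CPM in S3, S1 and S2-like barcodes. Inmt (chr6:55170626-55175043, minus strand), which methylates indoles such as tryptamine, stood at 963, 136 and 479 CPM. A UMI of each of these 3 genes was held by 53.7% of S3 and 0.527% of S1 barcodes, and by 23.5% and 0.125% after thinning to 3000 UMIs. S2-like barcodes lay between S1 and S3 for all 3 markers. They had a median depth of 5766 UMIs and were picked by Slc22a6, which S3 barcodes also hold. S3 cells whose Slc7a13 was missed can therefore be among them, and their part was not tested. Conversely, S2 cells can be among the S3 barcodes, and their part was not tested either. The 10 genes listed for S2, Slc22a6 among them, summed to 4762 CPM in S3, 2954 in S1 and 4964 in S2-like barcodes. The log2 ratio of Inmt in S3 to S1 was 2.82 pooled and 2.07 as the median of the libraries.

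Kap (chr6:133849851-133853762, minus strand), the androgen-regulated kidney protein, was the most abundant transcript in S3 at 61499 CPM, ahead of Malat1 at 48685 CPM. By library it was 55393, 63155, 39038, 49281 and 71777 CPM, and in S1 barcodes of the pooled libraries 4821 CPM. A UMI of Kap was found in every S3 barcode, with a median of 445.5 UMIs, but also in 95.3% of thick limb barcodes. In droplets of at most 100 UMIs, which hold mainly free RNA, Kap was 11452 to 33697 CPM, and each library's S3 level lay above its own free RNA level.

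To describe S3 against the start of the tubule, UMIs were summed over the 8816 S3 and 7977 S1 barcodes. A gene was called where its CPM differed at least 2-fold, reached 10 CPM in the higher group and differed in the same direction in all 5 libraries. Of 7915 genes compared, 311 were called higher in S3 (3.93%) and 482 lower (6.09%). Over all these genes the median log2 ratio was -0.14, and scaling by the median of ratios, which sets it to 0, gave 391 higher and 398 lower. S3 barcodes came mainly from libraries 1, 2 and 5, while library 3 gave the most S1 barcodes. Pooled ratios therefore mix libraries, and the median of the 5 within-library log2 ratios is given beside those that it moved by more than 1.5 times.

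**Figure D2:**
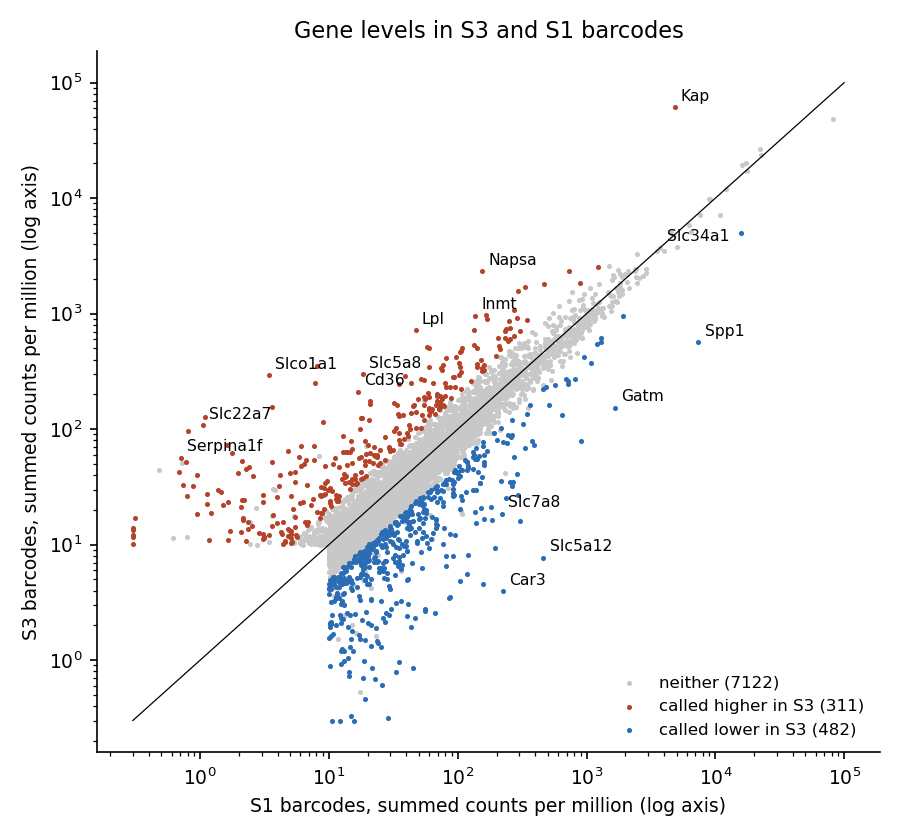
Summed CPM of 7915 genes in S1 (x axis) and S3 barcodes (y axis), both on log axes with levels under 0.3 CPM drawn at 0.3; colours mark the 311 genes called higher, the 482 called lower and the rest, and the line marks equal levels. Kap stands at the top at 61499 CPM, and Slco1a1, Slc22a7 and Serpina1f lie at the left with S1 levels of 3.40, 1.05 and 0.705 CPM.

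Large ratios to S1 were found for a protease inhibitor, a protease and an anion carrier, whose order differs between pooled ratios and medians over libraries. Serpina1a, an alpha-1-antitrypsin, was 97.2 against 0.808 CPM (log2 ratio 6.91 pooled and 5.03 as the median of the libraries, which ran from 2.23 to 7.84). Mep1b, the beta subunit of the brush border protease meprin, was 128 against 1.10 CPM (log2 ratio 6.86 pooled and 5.40 as the median of the libraries), and Slc22a7 (OAT2) 108 against 1.05 CPM (log2 ratio 6.69 pooled and 4.85 as the median of the libraries). Bdh1, which interconverts the ketone bodies, was 72.6 against 1.62 CPM. Lpl, lipoprotein lipase, was 718 against 47.2 CPM, and Cd36, a fatty acid receptor, 212 against 16.8 CPM. Napsa (chr7:44572380-44586862, plus strand), an aspartic protease of the lysosome, was 2335 against 155 CPM. Irx3, a homeobox factor of nephron patterning, was 52.2 against 3.63 CPM.

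Of all genes 3.93% were called higher than in S1 and 6.09% lower. Organic ion carriers were called higher in 9 of the 18 compared, and lower in 1, a count near the share of lower calls over all genes. Their median log2 ratio was 0.93 against -0.14 for all genes. Apart from Slco1a1 and Slc22a7, those higher included Slc22a6 (OAT1) at 866 against 250.3 CPM, Slc22a12 (the urate carrier URAT1) at 732 against 238 CPM and Slc22a2 (OCT2) at 371 against 102 CPM. Abcc4, an efflux pump of organic anions, was the lower one at 6.23 against 24.4 CPM. Abcg2, a urate and drug efflux pump, was 478 against 502 CPM and not called. Slc22a13 was 52.2 against 0.773 CPM (log2 ratio 6.08 pooled and 5.05 as the median of the libraries) and Slc22a19 42.2 against 0.688 CPM (log2 ratio 5.94 pooled and 4.57 as the median of the libraries).

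Slc22a13 and Slc22a19 had like patterns among S3 cells, given further on, and their upstream sequences are printed to show what they share. Of the 16 genes on the S3 lists, 11 matched RefSeq promoters of GRCm38.p6. For both genes the 250 bases before the start follow, 5′ to 3′ on the minus strand, at chr9:119209106-119209355 for Slc22a13 and chr19:7711311-7711560 for Slc22a19. Capitals mark ACCTTTAACAGA, the longest run of bases that both windows hold.
Slc22a13: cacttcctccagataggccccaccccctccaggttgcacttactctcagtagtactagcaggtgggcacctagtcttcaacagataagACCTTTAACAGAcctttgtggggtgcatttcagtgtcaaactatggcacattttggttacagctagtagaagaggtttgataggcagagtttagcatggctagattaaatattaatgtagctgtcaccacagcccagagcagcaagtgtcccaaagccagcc
Slc22a19: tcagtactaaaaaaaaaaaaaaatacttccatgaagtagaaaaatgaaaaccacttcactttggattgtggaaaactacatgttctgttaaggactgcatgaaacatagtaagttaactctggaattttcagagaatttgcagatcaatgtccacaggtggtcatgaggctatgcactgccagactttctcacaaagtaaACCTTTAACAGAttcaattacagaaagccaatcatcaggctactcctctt
The run begins 162 bases before the start of Slc22a13 and 50 bases before that of Slc22a19. It was picked after the sequences were seen, and on either strand it occurs in 4 of 32544 promoters of 300 bases (0.0123%), the others being those of Gm16124 and Gm32658. A shared run is a description and not a binding site.

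Carriers for sugars and amino acids were called in both directions. Of 9 sugar and monocarboxylate carriers 3 were called higher and 3 lower, and of 14 amino acid and peptide carriers 4 higher and 5 lower. Over all genes 3.93% were called higher and 6.09% lower. Slc5a1 (SGLT1), the high-affinity glucose carrier of the late tubule, was 39.8 against 4.18 CPM, and Slc5a10, a mannose and fructose carrier, 174 against 20.8 CPM (log2 ratio 3.06 pooled and 2.45 as the median of the libraries). Slc5a12, the low-affinity lactate carrier of the early tubule, was 7.73 against 462 CPM (log2 ratio -5.90, libraries -6.63 to -4.30). Slc2a2 (GLUT2), the basolateral exit for glucose, was 86.0 against 261 CPM. Slc6a18, a neutral amino acid carrier of the late tubule, was 287 against 39.2 CPM, and its early counterpart Slc6a19 26.9 against 296 CPM. Slc7a7 and Slc7a8, exit carriers of the basolateral side, were 41.2 against 286 CPM and 18.6 against 220.5 CPM. Slc15a2 (PEPT2), a high-affinity peptide carrier, was 93.0 against 35.0 CPM.

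Of 10 phosphate and acid-base genes 1 was called higher and 3 lower, where 3.93% of all genes were higher and 6.09% lower, so the higher count is near the share over all genes. Slc34a3, a phosphate carrier of the early tubule, was 3.44 against 86.2 CPM. Slc34a1, the main phosphate carrier, was 3727 against 3735 CPM in the pooled sums, while its within-library log2 ratio was negative in each library and lay between -0.37 and -0.18. Car2, the cytosolic carbonic anhydrase, was 132 against 648 CPM and Car4, the membrane-bound one, 229.6 against 95.3 CPM. Slc4a4, the basolateral bicarbonate carrier, was 613 against 1303 CPM.

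The list of cytochrome P450 and steroid metabolism also holds other enzymes, among them the S3 marker Inmt. Of its 19 genes compared, 12 were called higher in S3 and 1 lower, with a median log2 ratio of 1.96. Over all genes 3.93% were called higher and 6.09% lower, so the lower count is near that share. Cyp4b1 stood at 1823 against 470.1 CPM, Cyp2e1 at 916 against 291 CPM, Cyp2a4 at 253 against 7.84 CPM and Cyp2d9 at 157 against 3.64 CPM (log2 ratio 5.42 pooled and 4.50 as the median of the libraries). Reads of Cyp2a4, Cyp2d9 and the Serpina1 genes can be shared with near-identical family members, so their levels are uncertain. Akr1c14, a hydroxysteroid dehydrogenase, was 62.5 against 1.77 CPM (log2 ratio 5.14 pooled and 4.30 as the median of the libraries) and Hsd11b1, which activates glucocorticoids, 45.0 against 2.25 CPM (log2 ratio 4.32 pooled and 3.41 as the median of the libraries). Cyp2d26 was the lower one at 32.3 against 264 CPM. Of the 7 genes on the androgen-related list 4 were called higher, namely Kap, Slco1a1, Cyp2d9 and Slc22a30.

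Fatty acid and peroxisome genes were called higher in 11 of 22 and lower in 2. Acsm3, a medium-chain acyl-CoA synthetase, was 354 against 8.01 CPM (log2 ratio 5.47 pooled and 4.81 as the median of the libraries). Acadm, a medium-chain dehydrogenase of beta-oxidation, was 881 against 344 CPM, and Ehhadh, a peroxisomal enzyme of the same pathway, 195 against 69.1 CPM. Fabp1 at 1.55 against 10.0 CPM and Acsl1 at 65.0 against 167 CPM were the lower ones. Of 10 genes of gluconeogenesis and glycolysis 0 were called, a count near the shares of 3.93% higher and 6.09% lower over all genes, and Pck1, a rate-limiting enzyme of gluconeogenesis, was 1944 against 1567 CPM. The glutathione and redox list divided, with 5 of 19 higher and 5 lower. Ggt1, the brush border enzyme that breaks glutathione down, was 1083 against 275 CPM and Gclc, which starts its synthesis, 233 against 80.7 CPM. Gpx3, the secreted glutathione peroxidase, was 4978 against 15839 CPM.

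S2-like barcodes stood closer to S3. The part of S3 cells with missed Slc7a13 among them was not tested, nor was that of S2 cells among the S3 barcodes. Of 7569 genes compared, 81 were called higher in S3 (1.07%) and 113 lower (1.49%). Of the S2 genes called higher than in S1, Slc22a12 and Cyp2e1 had log2 ratios of 0.45 and 0.22 to the S2-like barcodes and were not called. Slc13a1, a sulfate carrier listed for S2, was called lower against both, at 565 CPM in S3, 1290.02 in S1 and 1391 in S2-like barcodes, with a log2 ratio to the latter of -1.30 pooled and -0.70 as the median of the libraries. Of the 12 other S3 genes 7 were called higher. Slc22a7, Slc22a13 and Slc22a19 were among them, with pooled log2 ratios of 5.10, 4.80 and 4.27 and within-library medians of 4.40, 3.76 and 2.56. The pooled haemoglobin genes Hbb-bs and Hbb-bt had log2 ratios of 5.08 and 5.84 without a call, and within-library medians of 4.40 and 3.57. Taking the median of the within-library ratios in place of the pooled ratio called 52 genes higher and 52 lower, of which 51 and 47 were among those called from the pooled ratio.

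Within S3 the libraries were not alike. Of 8045 genes 362, or 4.5%, had a highest library at least 4 times the lowest, where a library under 3 UMIs counted as 3. On the list of other S3 genes it was 6 of 12. Serpina1f, a secreted serpin relative, was 58.2, 68.0, 0.692, 0.363 and 69.0 CPM in libraries 1 to 5, with fewer than 3 UMIs in library 3. Slc22a7 was 61.7, 97.7, 10.4, 4.84 and 204 CPM, and Slc22a19 was 23.0, 29.4, 3.46, 5.93 and 85.8 CPM. For these genes libraries 1, 2 and 5 were high and libraries 3 and 4 low. This division of the libraries was made after the values were seen, and how many of all genes divide alike was not counted. Cyp7b1, the oxysterol 7-alpha-hydroxylase, was also higher in libraries 1, 2 and 5, at 18.8, 38.5, 0.692, 0.242 and 112 CPM in S3, with fewer than 3 UMIs in each of libraries 3 and 4. In the droplets of at most 100 UMIs it was 3.36, 8.66, 4.43, 8.99 and 40.1 CPM. Slc22a6 was more even, at 924, 942, 1051, 848 and 743 CPM.

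**Figure D3:**
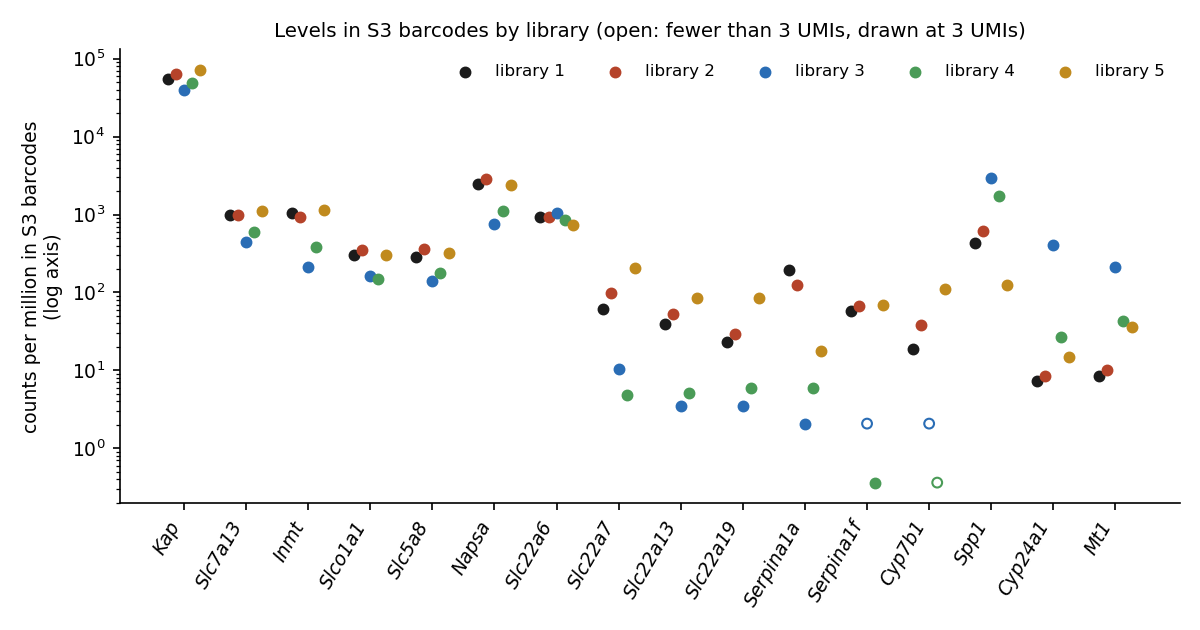
CPM in S3 barcodes (y axis, log) of 16 genes (x axis) in libraries 1 to 5 (colours); open points had fewer than 3 UMIs and are drawn at the level of 3 UMIs. Cyp7b1, Serpina1f, Slc22a7, Slc22a13 and Slc22a19 were low in libraries 3 and 4, while Spp1, Cyp24a1 and Mt1 were highest in library 3.

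Since members of libraries 3 and 4 had less Slc7a13, their levels are also given at like Slc7a13 counts after thinning each barcode to 3000 UMIs, as a description that rests on the gene of the rule. Among members with 2 to 3 Slc7a13 UMIs of 3000 there were 1065, 729, 76, 384 and 1250 barcodes in libraries 1 to 5. Serpina1f was then 33.2, 58.1, 0, 0 and 36.0 CPM, and with 0 counted in libraries 3 and 4 a level of 3 UMIs would be 13.2 and 2.60 CPM there. Slc22a7 was 48.5, 86.9, 13.2, 6.08 and 127 CPM, where the value of library 3 rests on 3 UMIs. Inmt was 1070.1, 958, 175, 419 and 1208 CPM, lowest in library 3. Slc22a6 was 964, 945, 1053, 847 and 802 CPM.

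Several injury and stress genes were highest in library 3. Of 15 injury and stress genes compared across libraries, 11 had a highest library at least 4 times the lowest, against 4.5% of all genes, and 9 of these were highest in library 3. Over all genes library 3 was the highest for 165 of the 362 with such a range. Spp1 (osteopontin), a secreted matrix protein of injured tubules, was 427, 614, 2975, 1735 and 123 CPM in libraries 1 to 5. Clu (clusterin), a secreted chaperone, was 49.0, 59.9, 288, 21.2 and 12.3 CPM. Cyp24a1, which inactivates vitamin D, was 7.27, 8.40, 408, 26.9 and 14.9 CPM. Library 3 thus stood highest for all 3 genes. Mt1, a metallothionein, was 8.53, 10.00, 212, 43.0 and 36.5 CPM. The summed level of the injury list was 1628, 1592, 4047, 2274 and 691 CPM in S3 and 3354, 3925, 15785, 5112 and 3596 CPM in S1 barcodes of the same libraries. In droplets of at most 100 UMIs it was 2110.4, 4038, 14572, 5135 and 2374 CPM, and the part of this free RNA in the S3 values was not tested. Against S1, 6 of 17 injury genes were called lower in S3 and 0 higher, where 6.09% of all genes were called lower and barcodes with Havcr1 had been left out of both groups. The median log2 ratio of the list was -1.71 pooled and -0.43 when each gene's median over libraries was taken, and 3196 of the 7977 S1 barcodes came from library 3.

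Markers of other cells were present in S3 and moved with the library in places. With barcodes holding 2 or more UMIs of such markers left out, haemoglobin genes not counted, 6419 of the 8816 S3 barcodes remained. The 4 haemoglobin genes summed to 51.5, 366, 0, 0 and 0.167 CPM in S3 of libraries 1 to 5 and to 83.2, 793, 10.0, 50.8 and 7.26 CPM in the droplets of at most 100 UMIs. The 5 macrophage markers summed to 249, 169.7, 67.1, 51.1 and 36.4 CPM in S3. The 5 thick limb markers summed to 15.4 to 65.7 CPM, the 5 endothelial ones to 0.833 to 18.4 CPM and the 4 podocyte ones to 1.54 to 21.5 CPM. Gm42418, which overlaps ribosomal RNA genes, was 287, 9030.1, 2561, 7217 and 6290.1 CPM, so library 1 stood apart. The part of these signals in the differences between libraries was not tested. Among the 8816 S3 barcodes 4 sequences occurred in more than 1 library, and among all 37382 passing barcodes 143. The sets differ in size, so these counts are not set against each other.

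Among S3 cells the level of Slc7a13 went with that of other genes. Members were divided within each library into 4 bands of equal size by their Slc7a13 share, with median depths of 8273.5, 7231, 7512 and 7847 UMIs. From the lowest to the highest band Serpina1f went from 9.43 to 149 CPM, Cyp7b1 from 8.04 to 138 CPM, Slc22a13 from 9.28 to 129 CPM, Slc22a7 from 23.0 to 258 CPM and Slc22a19 from 8.78 to 99.7 CPM. Napsa went from 1379 to 3829.8 CPM. In the other direction, Slc22a8 (OAT3) went from 270.2 to 99.5 CPM and Gatm, the first enzyme of creatine synthesis, from 262 to 74.1 CPM. The markers Slco1a1 with 218 and 339 CPM and Slc5a8 with 249 and 364 CPM differed less, and Inmt had 972 and 842 CPM in the lowest and highest band. These bands were cut from the gene that chose the cells and are a description only.

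**Figure D4:**
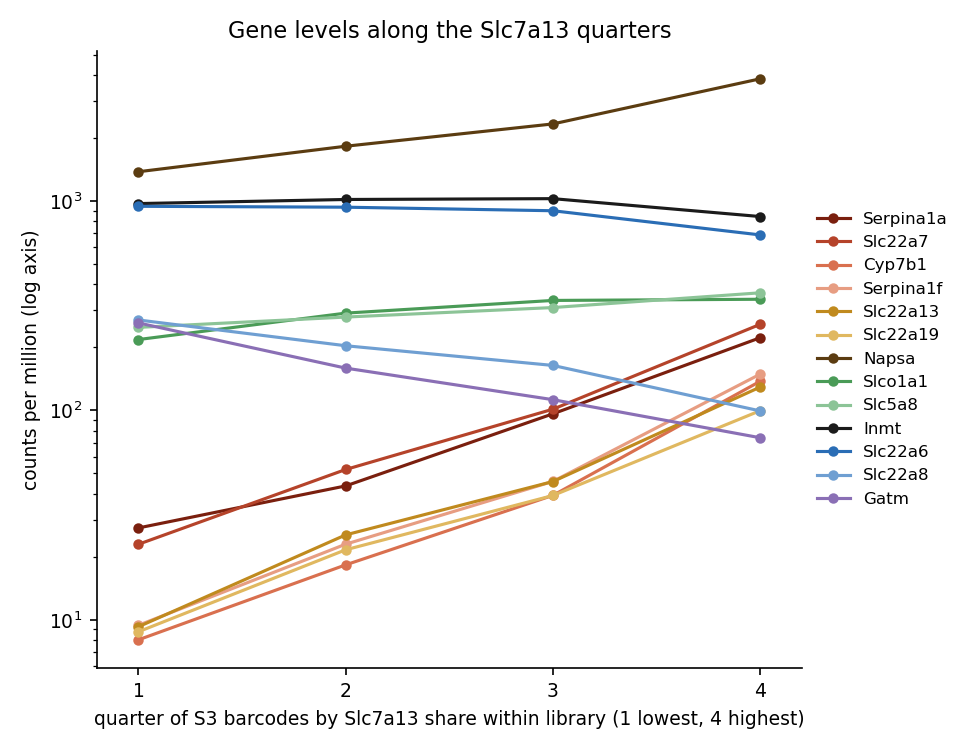
CPM (y axis, log) of 13 genes in S3 barcodes along 4 equal bands of Slc7a13 share within library (x axis, 1 lowest to 4 highest); each point is the summed level of 2202 to 2206 barcodes. Serpina1f went from 9.43 to 149 CPM and Slc22a8 from 270.2 to 99.5 CPM.

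Cyp7b1, at chr3:18071950-18243338 (GRCm38, minus strand), was found in few members. A UMI of it was held by 7.54% of S3, 0.464% of S1, 1.75% of thick limb and 1.56% of leukocyte barcodes, and by 5.46%, 0.176%, 0.292% and 0.626% after thinning to 3000 UMIs. At least 2 UMIs were held by 63 members in library 1 (2.37%), 91 in library 2 (4.71%) and 300 in library 5 (9.81%). The count was 0 of 186 members in library 3, which allows a share of up to 1.61% at 3 counts (exact 95% upper limit 1.96%), and 0 of 980 in library 4, which allows up to 0.306% (upper limit 0.376%). These limits are for barcodes with 2 or more UMIs and not for cells that express the gene. The 454 cells were compared with the 6988 members of libraries 1, 2 and 5 that had no Cyp7b1 UMI. This division was made after the levels had been seen, Cyp7b1 itself is left out, and a call asks for the same direction of the CPM in each of these 3 libraries. For 1 of the genes called higher and 2 of those called lower, a library held at most 3 UMIs in both groups. The direction was met there too, but in that library it rests on these few UMIs.

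The S3 markers parted between the cells with and without Cyp7b1. Of 7549 genes compared, 248 were called higher (3.29%) and 329 lower (4.36%). Slc7a13 was 1819 against 957 CPM and Napsa 8210.2 against 2034 CPM, and Slc5a8 was 464 against 307 CPM, under the fold asked. Slco1a1 was 94.0 against 335 CPM (log2 ratio -1.83, libraries -2.61 to -1.56). Inmt was 187 against 1095 CPM in library 1, 109.9 against 993 CPM in library 2 and 206 against 1273 CPM in library 5. Inmt was thus lower in the Cyp7b1 cells of each library. Kap was 75603 against 62451 CPM and not called.

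**Figure D5:**
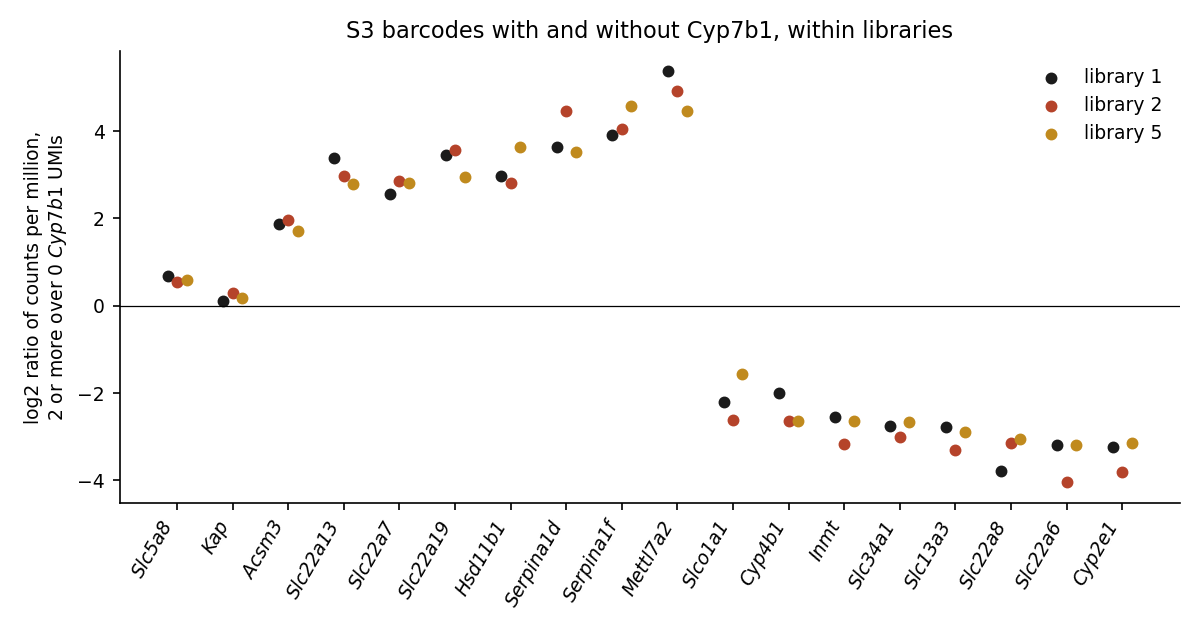
Log2 ratio of CPM (y axis) between S3 barcodes with 2 or more Cyp7b1 UMIs and those with 0, for 18 genes (x axis) in libraries 1, 2 and 5 (colours). Serpina1f and Mettl7a2 lie above 0 and Slco1a1, Inmt, Slc34a1, Slc22a6 and Cyp2e1 below 0 in each of the 3 libraries, while Kap lies between 0.11 and 0.28 and Slc5a8 between 0.55 and 0.69.

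Of the 11 other S3 genes compared, 9 were called higher in the Cyp7b1 cells and 0 lower, where 3.29% of all genes were called higher. This list was chosen with earlier results of these data known and Cyp7b1 is itself on it, so the count is a description only. Serpina1f was 473 against 29.5 CPM, at 549 against 36.6 CPM in library 1, 563 against 34.0 CPM in library 2 and 421 against 17.6 CPM in library 5. Slc22a7 was 647 against 76.6 CPM (417 against 58.7 CPM without library 5, which gave 300 of the 454 cells), Slc22a13 314 against 37.2 CPM and Slc22a19 291 against 26.5 CPM (195 against 16.7 CPM without library 5). Slco4c1, a carrier of digoxin and thyroid hormone, was 73.4 against 3.83 CPM, and Hsd11b1 315 against 28.4 CPM (198 against 26.9 CPM without library 5). Their lists as a whole went both ways. Organic ion carriers were called higher in 4 and lower in 5 of 18. Cytochrome P450 and steroid genes were called higher in 3 and lower in 8 of 18, where 4.36% of all genes were called lower. The next 5 genes were chosen after their values were seen. Akr1c18, which inactivates progesterone, was 144 against 0.946 CPM, and 80.2 against 0.551 CPM without library 5. By library it was 31.2 against 0.267 CPM in library 1, 117 against 0.916 CPM in library 2 and 185 against 1.72 CPM in library 5. Scd1, a fatty acid desaturase, was 200.3 against 21.7 CPM and Apob, the apolipoprotein of secreted lipoproteins, 237 against 14.6 CPM. Irx1, a homeobox factor of the nephron, was 101 against 4.12 CPM, and Cldn3, a tight junction claudin, 69.2 against 6.06 CPM.

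Genes of the S2 and S1 lists and of phosphate and acid-base transport were mostly on the lower side in the Cyp7b1 cells. Of 9 S2 genes 5 were called lower and 0 higher, of 10 S1 genes 7 lower and 1 higher, and of 9 phosphate and acid-base genes 7 lower and 0 higher. Median log2 ratios of these lists were -1.54, -1.97 and -2.31, against -0.03 for all genes. Over all genes 4.36% were called lower and 3.29% higher. The S1 list overlaps that of phosphate and acid-base genes, with Slc34a1 and Slc4a4 among the lower genes of both. The S2 list summed to 2397 CPM in the Cyp7b1 cells and 5027 CPM in the members without Cyp7b1. The part of S2 cells among the latter was not tested. Slc22a6 was 88.0 against 936 CPM, Slc22a8 21.7 against 203 CPM and Cyp2e1 93.8 against 1020.3 CPM. Slc34a1 was 576 against 4089.97 CPM. Slc13a3, a dicarboxylate carrier, was 40.1 against 332 CPM and Car4 23.7 against 250.5 CPM. Of 15 general proximal tubule genes 3 were called lower, where 4.36% of all genes were. Lrp2 at 744 against 901 CPM and Hnf4a, a master factor of the proximal tubule, at 193 against 207 CPM were not called.

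The Cyp7b1 cells had 8682.5 UMIs at the median and the others 7748, and they held a median of 14 Slc7a13 UMIs against 6. With at least 10 Slc7a13 UMIs asked of both groups, 302 and 2097 barcodes were left, whose medians of 20 and 14 Slc7a13 UMIs still differed. Then 213 genes were higher and 278 lower, of which 195 and 260 were among those called before. Slco1a1 was 100.2 against 407 CPM, Inmt 175 against 1137 CPM, Slc22a6 86.5 against 909 CPM and Serpina1f 481 against 50.5 CPM. In the first comparison, several markers of other cells and injury genes also met the call, where 3.29% of all genes were called higher and 4.36% lower. Of the 4 haemoglobin genes compared 2 were called lower, and so were 2 of 2 collecting duct markers. Of 5 macrophage markers 1 was called higher and 1 lower. The 4 haemoglobin genes summed to 2.71 against 54.1, 2.04 against 394 and 0 against 0.197 CPM in libraries 1, 2 and 5. Hbb-bs and Hba-a1 were called lower, with 2 and 1 UMIs in the Cyp7b1 cells and at most 3 UMIs in both groups of library 5. The 4 collecting duct markers summed to 5.42 against 29.98, 2.04 against 34.0 and 4.73 against 64.1 CPM. Of these Aqp3 (log2 ratio -3.27 pooled and -2.68 as the median of the libraries) and Fxyd4 (-3.42 pooled and -1.19 as the median of the libraries) were called lower, with 9 and 5 UMIs in the Cyp7b1 cells. With at least 1 Cyp7b1 UMI asked instead, Fxyd4 went the other way, at 25.5 against 12.0 CPM. Aqp3 was then 12.8 against 19.4 CPM, under the fold asked. The 5 macrophage markers summed to 509.8 against 241, 85.5 against 176 and 67.0 against 31.6 CPM. Csf1r at 58.9 against 15.4 CPM was called higher. Cd74 was called lower from the pooled sums, with a log2 ratio of -1.79 pooled and -0.53 as the median of the libraries, and was 130.2 against 179 CPM in library 1, 17.3 against 128 CPM in library 2 and 9.83 against 14.2 CPM in library 5. Of 12 injury genes Cryab, a small heat shock protein, was called higher at 916 against 96.4 CPM. Clu was called higher at 68.3 against 33.7 CPM (log2 ratio 1.02 pooled and 1.85 as the median of the libraries), or 126 against 46.9 CPM without library 5. It was under the fold asked without library 1, at 54.2 against 30.7 CPM. The same held with at least 10 Slc7a13 UMIs in both groups, at 49.9 against 32.4 CPM. Of the 12 injury genes 2 were thus called higher and 1, Myc, lower, the lower count being near the share over all genes. Barcodes holding 2 or more UMIs of other cells' markers, haemoglobin genes not counted, were also left out of both groups. Then 326 and 4986 barcodes remained, with 252 genes higher and 346 lower, of which 223 and 293 were among those called before. Inmt was 194 against 1171 CPM, Slc22a6 84.5 against 925 CPM and Serpina1f 474 against 23.3 CPM. Barcodes with fewer such UMIs stayed in, and the part of these markers in the difference was not tested further.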

How the data were processed

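Raw UMI counts per gene and barcode, which the authors deposited as 1 unfiltered matrix of 32285 genes and 10474594 barcodes, were used as they stood. The study used the 3' V3.1 kit of 10x Genomics, aligned reads to mm10 (GRCm38) and counted UMIs with Cell Ranger, whose version is 6.0 per the labels and 6.0.1 in the matrix header. Library totals ran from 82426945 to 139382799 UMIs.

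The cell rule, the S1 and S2-like rules and all gene lists were chosen with earlier results of these data known. CPM came from UMIs summed over the barcodes of a group, with exact Poisson or conditional binomial intervals at 95% and a floor of 3 UMIs. No significance test was run, because the libraries are not tied to conditions and cells are not replicates. Named genes were list members, the 20 highest and 15 lowest called ratios to S1, the 10 highest and lowest to S2-like barcodes and between the Slc7a13 bands (all with at least 50 CPM in the higher group), the 15 most variable between libraries (at least 100 CPM in the highest) and the 15 most abundant. The Cyp7b1 division, its settings and the genes named only there were chosen after values were seen. No doublet caller was run; a UMI cap and a limit on other cells' markers were tried instead. Coordinates are those of GENCODE on GRCm38. Python 3.11.15, numpy 2.4.6, scipy 1.17.1 and pandas 2.3.3 were used. Some items are not reported here.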

Additional observations from a re-analysis of the deposited data

How the results depend on the processing

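S3, S1 and S2-like barcodes came from the same libraries, so each call asked for 1 direction in every library. With at least 5 Slc7a13 UMIs asked there were 5498 S3 barcodes, and with at most 10% mitochondrial UMIs 2663. Leaving out 1 library at a time gave 5757 to 8630 S3 barcodes, the lowest without library 5. It gave 301 to 332 genes higher and 453 to 553 lower than S1, and 77 to 93 higher and 75 to 153 lower than S2-like barcodes, the 75 without library 3. With no filter on low counts, 542 genes were higher and 1422 lower than S1, and 163 higher and 305 lower than S2-like. The median of within-library ratios gave 292 higher and 447 lower against S1 and 52 and 52 against S2-like, and fold alone 181 lower. Median-of-ratios scaling gave 391 higher and 398 lower genes against S1, in place of 311 and 482. For the Cyp7b1 cells, alternatives chosen after seeing the data gave 213 to 343 genes higher and 222 to 415 lower, and leaving out library 1, 2 or 5 gave 241 to 343 and 316 to 386. For the 116 named genes called against S1, 943 of 2204 ratios under the alternatives left the counting interval of the value reported. None changed direction, but a call had already asked for 1 direction in every library, so this was largely fixed beforehand. Dropping the low-count filter or the direction rule also leaves each ratio as it was. The UMI cap and the limit on other cells' markers kept all 4 counts against S1 and S2-like within 1.5 times. The causes of these shifts were not tested. Depth limits library 3 most, where 3 UMIs make 2.08 CPM over its 186 S3 barcodes.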
